A study of Mus musculus with 12 samples.

Results

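The genes described here encode the integrin alpha and beta subunits together with the adaptors and kinases that gather at their cytoplasmic tails. They were taken by symbol, as every gene named Itga or Itgb plus a number or letter, with 16 named focal adhesion adaptors and kinases added. Of 18193 genes measured, 38 belonged to the group: 16 alpha subunits, 8 beta subunits and 14 of the 16 adaptors and kinases. Ptk2 and Fermt1 were not analysed here. The samples were 4 mouse lung adenocarcinoma cell lines, each with 3 arrays labelled as biological replicates. The labels class KC1, KC2 and KC3 as highly metastatic and class KC4 as poorly metastatic. Every line, KC4 included, carried K-rasLA1/+, an allele whose recombination activates mutant K-ras here and there in the tissue, and Cdkn1a-/-, the loss of a cell cycle inhibitor. The background was labelled 127s, and the cells were grown in RPMI medium with foetal bovine serum. By the labels the lines came from 6 primary tumours of 4 mice, with no record of which mouse gave which line. KC4 was the sole poorly metastatic line, so metastatic class and cell line cannot be told apart in any comparison with it.

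Integrins are transmembrane heterodimers of 1 alpha and 1 beta subunit that bind matrix proteins or counter-receptors on other cells. Talin and kindlin bind the beta tail and switch the receptor to its active state, and vinculin, tensin, zyxin and the complex of Ilk, Pinch and parvin tie it to actin. Paxillin, Bcar1 and Src pass signals on from the adhesion site. In lung epithelium the laminin receptors anchor cells to the basement membrane, and Itgb6 and Itgb8 are known for activating latent transforming growth factor beta.

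Values are log2 signals of Affymetrix 3-prime probe sets, with signals under 16 set to 16, so 4.00 is the lowest value possible. Each gene was read from its brightest probe set, and means are given ± SD over the 3 arrays of a line. Levels of different genes come from different probes and were not compared with each other. Between the 3 arrays of a line the typical (median) SD was 0.315 for genes with a mean under 6, 0.165 for genes between 6 and 10, and 0.082 for brighter genes. A call required both an adjusted p under 0.05 and a log2 difference of 1 or more in either direction. The p-values measure the spread between arrays of a line, and 3 arrays per line limit the precision.

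Arrays of the same line correlated across genes with a Spearman coefficient of at least 0.98, and arrays of different lines with 0.941 to 0.963. Genes are not independent replicates. All 7 epithelial markers lay above the floor on all 12 arrays, with summed signals of 84200 to 89100 for KC1, 75800 to 94300 for KC2, 80800 to 84500 for KC3 and 63400 to 74900 for KC4. The 5 lung lineage markers summed to 420 to 1200. Among them Nkx2-1, the lung identity factor, had line means of 4.18 to 5.41 on the log2 scale, Foxa2 of 6.68 to 9.03, Sftpb of 7.58 to 8.15, Sftpc of 6.63 to 6.86 and Scgb1a1 of 4.37 to 5.01. Endothelial and fibroblast markers summed to 319 to 528 and 376 to 653. In each list 1 gene, Tie1 and Pdgfrb, lay at the floor on all 12 arrays. The brightest of each list, Kdr and Col1a2, lay above it on every array, with line means of 7.62 to 7.82 and 7.38 to 7.59. The 5-prime control for 18S ribosomal RNA had mean signals of 605, 451 and 414 in KC1, KC2 and KC3, against 3310 in KC4. The other 18S controls differed less. The middle one had 289, 309 and 284, against 529 in KC4, and the 3-prime one 485, 576 and 590, against 868. The part of these control signals in the KC4 differences was not tested.

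Of the 38 genes, 31 lay above the floor on all 12 arrays and 0 lay at the floor on all of them. Itga7 was at the floor on 11 arrays, Itgb8 on 10, Itga1 and Itgam on 9 each, Lims2 on 8, and Itga5 and Itgb3 on 3 each. The heatmap by array shows that most rows varied little, and that the strongest departures followed single lines.

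**Figure D1:**
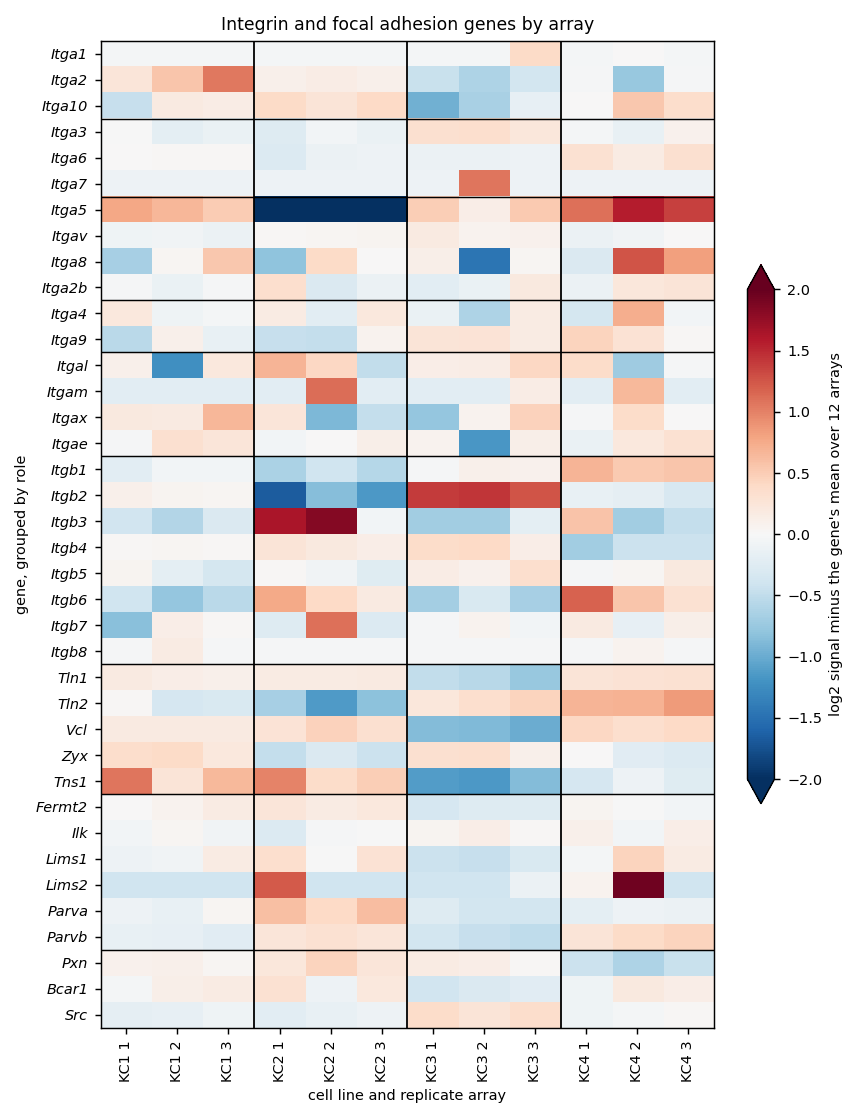
Log2 signal of each of the 38 genes (rows, grouped by role) on each of the 12 arrays (columns, 3 per line), minus the gene's mean over the arrays; the colour scale ends at 2 on either side. Itga5 is lowest on the 3 KC2 arrays, Itgb2 is lowest in KC2 and highest in KC3, and Vcl, Tln1 and Tns1 are lowest in KC3.

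The first comparison set the mean of the 3 highly metastatic lines against KC4. In this contrast 1 of the 38 genes was called, the fibronectin receptor subunit Itga5, which was lower in the highly metastatic lines. That is 2.63% of the group, against 5.45% of all genes (2.87% higher and 2.57% lower). The median log2 difference was -0.0972 over the group and -9e-04 over all genes. At an adjusted p under 0.05 without a minimum difference, 11 of the 38 genes passed, or 28.9%, against 32.1% of all genes. Of these, Pxn, Itgb4 and Parva were higher in the highly metastatic lines, and Itga5, Itga6, Itgb1, Itgb6, Tln1, Tln2, Vcl and Parvb were lower, on their brightest probe sets. The 3 higher genes were 7.89% of the group, beside 16.8% of all genes, and the 8 lower genes were 21.1%, beside 15.3%. Other probe sets of 2 of these genes had the opposite sign in this contrast: Tln1 gave -0.38 on the used set and 0.65 on the second (adjusted p = 0.0269), and Parva gave 0.18 and -0.31 (adjusted p = 0.047). No direction is therefore given for Tln1 and Parva.

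**Figure D2:**
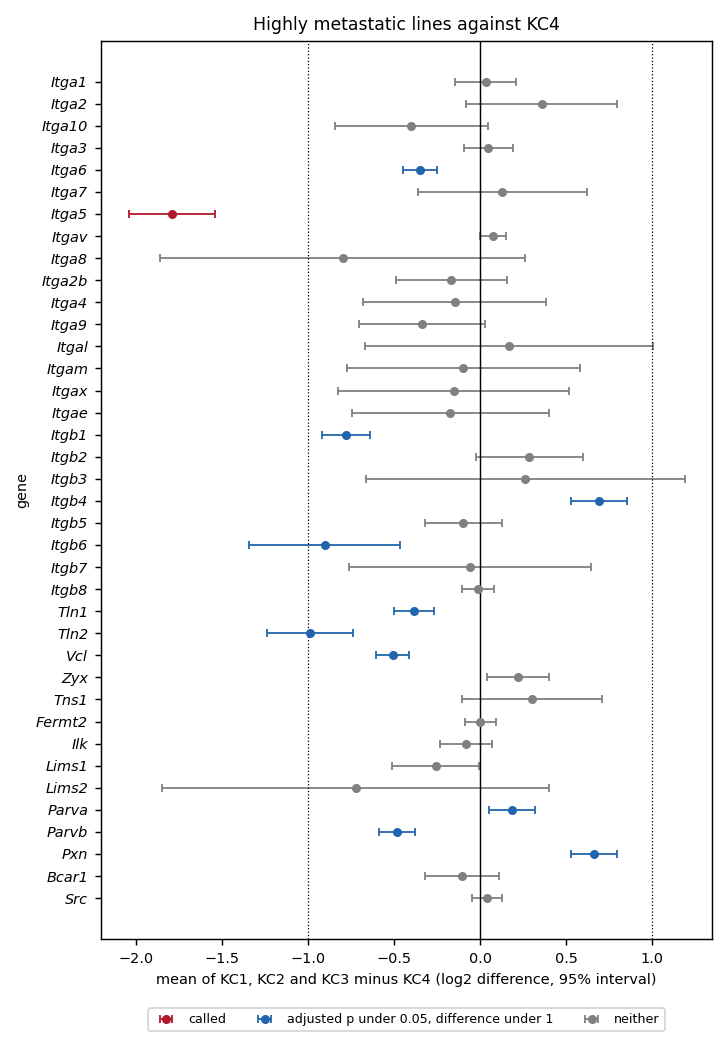
Difference between the mean of KC1, KC2 and KC3 and KC4 for each of the 38 genes, in log2 units, with its 95% interval from limma; dotted lines mark a difference of 1 in either direction. Itga5, at -1.79, is the gene that was called, and Tln2, at -0.99, lies just inside the minimum.

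Itga5 pairs with Itgb1 to form the main fibronectin receptor. On its used probe set the 3 KC1 arrays gave 7.15, 7.03 and 6.88, the KC2 arrays 4.00, 4.00 and 4.00, the KC3 arrays 6.87, 6.51 and 6.89, and the KC4 arrays 7.47, 7.94 and 7.74. All 3 KC2 arrays lay at the floor and below the other 9, and all 3 KC4 arrays lay above the other 9. Before the floor, the mean signal was 130 for KC1, 10.3 for KC2 and 109 for KC3, against 212 for KC4. The class difference was -1.79 (SE 0.110, limma adjusted p = 3.09e-06), a bound in size because KC2 entered at the floor. KC2 was at least 13.15-fold lower than KC4 (log2 difference -3.72, adjusted p = 1.06e-07). KC1 and KC3 also had less signal than KC4, by -0.70 (adjusted p = 0.00449) and -0.96 (adjusted p = 0.000481), both under the minimum for a call. Without KC2 the class difference was -0.83 (adjusted p = 0.00355) and was no longer called, and Itgb6 was called in its place, at -1.24 (adjusted p = 0.00413). With the line as a random block the adjusted p of Itga5 was 0.451. In cultured lines measured in bulk, fewer expressing cells and less RNA per cell cannot be told apart.

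The used Itga5 probe set is of a kind that can pick up related transcripts. Its 3 other probe sets were dim and none was called in any contrast in which the used set was called. On the brightest of the 3 the means were 4.59 ± 1.02 for KC1, 5.34 ± 1.24 for KC2 and 5.54 ± 1.33 for KC3, against 6.35 ± 0.21 for KC4, so that set did not put KC2 lowest. On the other 2 the KC2 arrays were all at the floor, and no line mean exceeded 4.97. The 250 bases upstream of the annotated Itga5 start, at chr15:103366792-103367041 on the minus strand (RefSeq, GRCm38.p6), are shown because this gene had the widest range between lines in the group. Capitals mark the GC box GGGCGG on either strand, and the window holds 2.
Itga5: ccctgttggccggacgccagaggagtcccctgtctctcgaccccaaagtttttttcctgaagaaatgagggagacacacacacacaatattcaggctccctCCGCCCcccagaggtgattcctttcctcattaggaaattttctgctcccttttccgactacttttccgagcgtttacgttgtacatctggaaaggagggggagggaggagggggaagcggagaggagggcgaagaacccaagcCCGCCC

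The other RGD-binding alpha subunits showed no call in any pair of lines. Itgav, the shared partner of several beta subunits, was steady, with means of 12.58 ± 0.02 for KC1, 12.72 ± 0.02 for KC2, 12.79 ± 0.06 for KC3 and 12.62 ± 0.07 for KC4. Its class difference was 0.08 with a 95% interval of 0.001 to 0.15. Itga8, a nephronectin receptor subunit, scattered widely between arrays, with means of 5.09 to 6.12 and SDs of 0.60 to 0.89. Itga2b, the platelet fibrinogen receptor subunit, had means of 8.68 to 8.87. Of the 2 other platelet markers, Gp9 lay at the floor on 7 arrays, and Pf4 had means of 8.57 for KC1, 7.11 for KC2, 6.09 for KC3 and 6.36 for KC4, an order that Itga2b did not share.

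The laminin-binding subunits are Itga3, Itga6 and Itga7. Itga3 had means of 13.00, 12.96, 13.41 and 13.08 in KC1, KC2, KC3 and KC4, and its 3 probe sets were each highest in KC3. KC2 minus KC3 was -0.45 on the used set and -0.92 on another, both under the minimum. On the remaining set it was called, at -1.21 (adjusted p = 0.000113). Itga6, which pairs with Itgb1 or with Itgb4, had 13.23, 13.05 and 13.11 in KC1, KC2 and KC3, against 13.47 in KC4. Its class difference was -0.35 (SE 0.043, adjusted p = 0.000241) and was under the minimum, and its second probe set gave -0.64. Itga7, the laminin receptor subunit of muscle, exceeded the floor on 1 array.

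Among the collagen-binding subunits, Itga2 had 8.35 ± 0.41 for KC1, 7.85 ± 0.03 for KC2, 7.26 ± 0.13 for KC3 and 7.46 ± 0.42 for KC4. It was called in KC1 against KC3, at 1.09 (SE 0.236, adjusted p = 0.00589). Without KC1 replicate 3 that difference was 0.87, with quantile normalization 0.91 and with median centring 0.89, and the call was lost in each. Itga10 was between 5.94 and 6.87, with no call in any pair. Itga4 and Itga9, receptors for Vcam1 among others, were between 6.24 and 6.78 in line means, again with no call.

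Of the 9 genes called in at least 1 pair, 4 were beta subunits. Itgb2, the shared beta chain of the leukocyte integrins, departed in opposite directions in KC2 and KC3. Its arrays gave 9.75, 9.70 and 9.69 for KC1, 7.98, 8.79 and 8.50 for KC2, 11.05, 11.07 and 10.91 for KC3, and 9.50, 9.46 and 9.33 for KC4. The KC2 arrays all lay below, and the KC3 arrays all above, those of every other line. KC2 was 2.58 lower than KC3 (log2 difference -2.58, SE 0.168, adjusted p = 2.68e-06), a 5.99-fold difference. KC3 was higher than KC4 by 1.58 (adjusted p = 8.49e-05). KC1 was higher than KC2 by 1.29 (adjusted p = 0.000468) and differed from KC3 by -1.29 (adjusted p = 0.000288). KC2 differed from KC4 by -1.01 (adjusted p = 0.00118), a call lost without KC2 replicate 1 (-0.78), without KC4 replicate 1 (-0.97), without KC4 replicate 2 (-0.99) or with log2(signal + 16) in place of the floor (-0.97). The class difference was 0.29 (adjusted p = 0.161) and was not called.

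Itgb2 was read from a single probe set. The leukocyte alpha chains that pair with it did not follow it on their used probe sets, with no call in any pair. Itgal had line means of 6.65 to 7.19, Itgax of 5.58 to 6.31, and Itgam exceeded the floor on 3 arrays. A second Itgal set, near the floor in KC4, was called in KC2 minus KC4, at 1.78 (limma adjusted p = 0.0416). The 8 measured leukocyte markers outside the group summed to signals of 868 to 1280 for KC1, 1410 to 1580 for KC2, 1250 to 1340 for KC3 and 1140 to 1280 for KC4. Their sum was thus highest in KC2, where Itgb2 was lowest. The single markers shared no common order. Ptprc, the pan-leukocyte surface phosphatase, had 5.99, 5.68, 5.33 and 5.74 in KC1, KC2, KC3 and KC4. In the same order Cd68 had 7.66, 8.34, 8.09 and 7.45, Csf1r 7.73, 8.21, 7.98 and 7.64, and Cd3e 4.69, 4.73, 5.07 and 4.74. The highest mean lay in KC1 for Lcp2, in KC2 for Lyz2 and Laptm5, and in KC4 for Adgre1. A leukocyte part in the Itgb2 signal was not tested. The fourth leukocyte alpha chain, Itgae, which pairs with Itgb7 and binds E-cadherin, had means of 5.84 to 6.35, and Itgb7 of 5.37 to 5.79. Neither was called in any pair.

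Itgb1, the partner of most alpha subunits, had 12.36 ± 0.09 for KC1, 11.94 ± 0.13 for KC2 and 12.53 ± 0.07 for KC3, against 13.05 ± 0.08 for KC4. KC4 had the highest mean and KC2 the lowest. The class difference of -0.78 (SE 0.063, adjusted p = 1.59e-05) was under the minimum, and KC2 against KC4 was called at -1.12 (SE 0.077, adjusted p = 4.53e-06). The gene has 5 other probe sets. Their class differences were -1.01, -1.20, -1.68, -1.89 and -0.69, and the first 4 were called.

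Itgb4, the beta chain of the hemidesmosome receptor, ran the other way. It had 11.26 ± 0.01 for KC1, 11.43 ± 0.07 for KC2 and 11.54 ± 0.14 for KC3, against 10.72 ± 0.15 for KC4. The class difference was 0.69 (SE 0.071, adjusted p = 7.13e-05), a 1.61-fold difference that did not reach the minimum.

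Itgb6, a subunit of epithelial cells, split the lines in another way, with 6.02 ± 0.19 for KC1, 7.03 ± 0.29 for KC2, 6.03 ± 0.21 for KC3 and 7.26 ± 0.45 for KC4. It was lower in KC1 than in KC4 (-1.25, adjusted p = 0.00398), lower in KC3 than in KC4 (-1.23, adjusted p = 0.00306) and lower in KC1 than in KC2 (-1.01, adjusted p = 0.0116). Without KC4 replicate 1 the first 2 differences were -0.995 and -0.98, and both calls were lost. The third was lost without KC1 replicate 2 (-0.91) or without KC2 replicate 1 (-0.86), and with a floor of 64 (-0.95). The mean of both probe sets gave -0.92 for KC3 minus KC4 and ended that call. The second probe set had 4.40, 6.80, 5.44 and 6.05 in KC1, KC2, KC3 and KC4, with 2 arrays at the floor, and put KC2 highest. It was also called lower in KC1 than in KC4 and than in KC2, and was not called in KC3 against KC4. Unlike the used set, it was called lower in KC1 than in KC3 (-1.05, adjusted p = 0.0434). It was also called higher in KC2 than in KC3 (1.36, adjusted p = 0.0116). Itgb8 had line means of 4.00 to 4.06.

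Itgb3, the beta chain of the vitronectin and platelet receptors, lay near the floor. It had 4.27 ± 0.16 for KC1, 5.83 ± 1.04 for KC2, 4.17 ± 0.29 for KC3 and 4.50 ± 0.68 for KC4. KC1 minus KC2 was -1.56 (SE 0.499, adjusted p = 0.0479) and KC2 minus KC3 was 1.67 (adjusted p = 0.0261). Leaving out 1 array raised the adjusted p of the first difference to as much as 0.149 (without KC2 replicate 2). The second reached 0.0908 without KC2 replicate 1. Both calls were lost with a floor of 64 and with the mean of the probe sets.

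Itgb5, a vitronectin receptor chain, depended on which probe set was read. The brightest set had 9.77 ± 0.21 for KC1, 9.83 ± 0.13 for KC2, 10.12 ± 0.14 for KC3 and 10.00 ± 0.11 for KC4, with no call. The 3 other sets were each low in KC1 and KC2. The second brightest had 6.96 ± 0.06 for KC1, 6.94 ± 0.15 for KC2 and 9.02 ± 0.11 for KC3, against 8.85 ± 0.16 for KC4. There KC1 minus KC4 was -1.89 and KC2 minus KC4 was -1.90 (adjusted p = 1.36e-06), and KC3 minus KC4 was 0.17 (adjusted p = 0.262). The third had 4.59, 4.63, 7.61 and 7.57 in KC1, KC2, KC3 and KC4, and the fourth 5.17, 4.45, 6.69 and 7.08. With the mean of all its probe sets in place of the brightest, Itgb5 was called lower in the class contrast, at -1.23 (adjusted p = 7.03e-05).

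**Figure D3:**
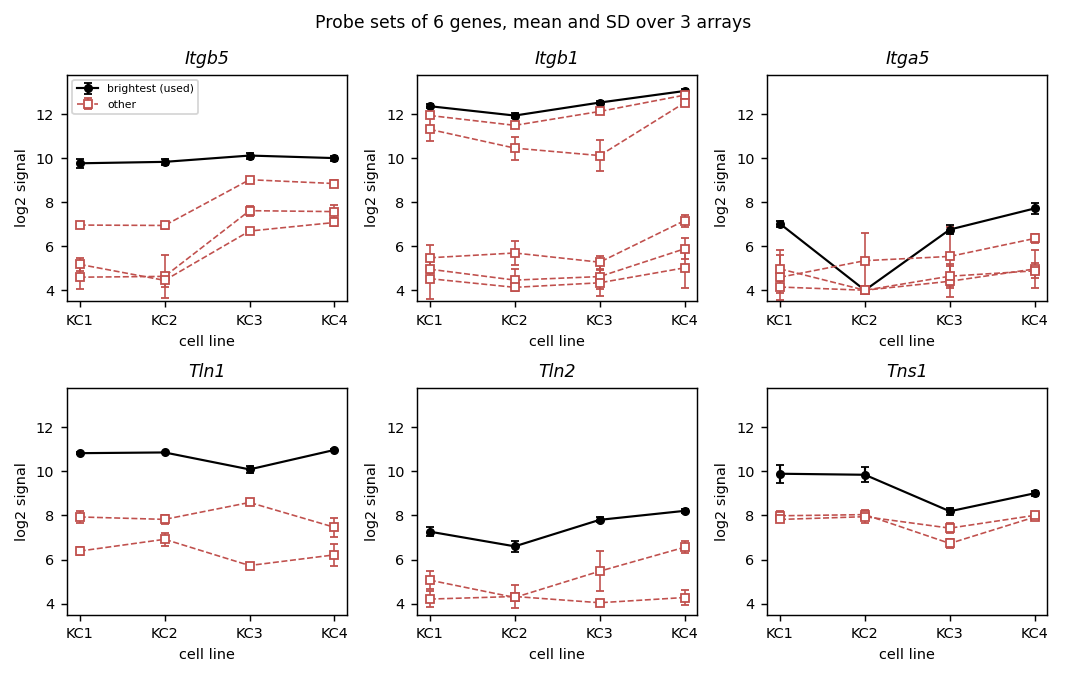
Mean log2 signal (points) and SD over 3 arrays (bars) in KC1, KC2, KC3 and KC4 for every probe set of 6 genes; the filled black series is the brightest set, used in all comparisons, and open red series are the others. The 3 other Itgb5 sets step up between KC2 and KC3 where the used set is level, and the second Tln1 set is highest in KC3 where the used set is lowest.

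Among the 5 genes that link integrins to actin, Vcl and Tns1 stood apart in KC3 and Tln2 in KC2. Vcl, vinculin, gave 12.42, 12.43 and 12.42 for KC1, 12.51, 12.70 and 12.56 for KC2, 11.38, 11.36 and 11.25 for KC3, and 12.65, 12.58 and 12.63 for KC4. The 3 KC3 arrays lay below the other 9, which ran between 12.42 and 12.70. KC3 was 2.45-fold lower than KC4 (log2 difference -1.29, SE 0.053, adjusted p = 2.28e-07). KC1 was higher than KC3 by 1.09 (adjusted p = 7.16e-07), and KC2 was higher than KC3 by 1.26 (adjusted p = 2.08e-07). The second Vcl probe set gave -1.22 for KC3 minus KC4 (adjusted p = 0.00153) and 1.07 for KC2 minus KC3 (adjusted p = 0.00252). For KC1 minus KC3 it gave 0.80 and was not called, and the mean of both sets, 0.94, was not called either.

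Tns1, tensin, which caps actin at fibrillar adhesions, gave 10.31, 9.50 and 9.88 for KC1, 10.23, 9.60 and 9.72 for KC2, 8.11, 8.10 and 8.36 for KC3, and 8.90, 9.14 and 8.99 for KC4. KC3 was again below all other arrays, and KC1 and KC2 were above KC4. KC1 minus KC3 was 1.71 (SE 0.218, adjusted p = 0.000269) and KC2 minus KC3 was 1.66 (adjusted p = 0.000244). KC3 minus KC4 was -0.82 (adjusted p = 0.0173), under the minimum, while the second probe set gave -1.20. On that second set KC1 and KC2 differed from KC4 by 0.06 and 0.11, against 0.89 and 0.84 on the used set.

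KC3 replicates 1 and 2 had the lowest median signals, 96.1 and 94.5. Centring each array on its median put the median difference of all genes at 0.161 in KC3 minus KC4, -0.206 in KC1 minus KC3 and -0.195 in KC2 minus KC3. After centring, Vcl stood at -1.11 in KC3 minus KC4 and 1.02 in KC2 minus KC3, and at 0.88 in KC1 minus KC3, where the call was lost. Tns1 stood at 1.50 in KC1 minus KC3 and 1.42 in KC2 minus KC3. Itgb2 stood at 1.75 in KC3 minus KC4.

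Both genes are shown with the 250 bases upstream of their annotated start because they were low together in KC3 (RefSeq, GRCm38.p6). Vcl lies at chr14:20929148-20929397 on the plus strand and Tns1 at chr1:74124549-74124798 on the minus strand. Capitals mark the motifs searched on both strands: the GC box GGGCGG, the TEAD motif GGAATG, the AP-1 motif TGANTCA, the E-box CACCTG, the ETS core CCGGAA and the CArG box, the site of serum response factor.
Vcl: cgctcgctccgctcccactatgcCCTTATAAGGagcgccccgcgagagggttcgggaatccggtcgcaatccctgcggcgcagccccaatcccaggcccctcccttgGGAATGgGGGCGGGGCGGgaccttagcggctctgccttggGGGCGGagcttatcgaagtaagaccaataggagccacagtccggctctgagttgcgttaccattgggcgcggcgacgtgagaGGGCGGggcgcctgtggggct
Tns1: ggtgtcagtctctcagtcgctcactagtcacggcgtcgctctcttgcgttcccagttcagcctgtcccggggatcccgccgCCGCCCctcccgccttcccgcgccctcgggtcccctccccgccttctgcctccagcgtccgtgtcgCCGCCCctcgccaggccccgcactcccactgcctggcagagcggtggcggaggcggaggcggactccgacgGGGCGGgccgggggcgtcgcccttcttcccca
The Vcl window held a CArG box ending 217 bases before the start, a TEAD motif at 137 bases and 4 GC boxes, 2 of them overlapping each other. The Tns1 window held 3 GC boxes and none of the other motifs. Over all 32851 promoters in the table, 1.47% held a CArG box, 12.6% the TEAD motif and 32.7% a GC box. Of the 33 windows listed for 27 of the 38 genes, 3 held a CArG box, 3 the TEAD motif and 17 a GC box. A match describes the letters and is neither a binding site nor a cause.

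Tln2, the second talin, was low in KC2. It gave 7.49, 7.13 and 7.17 for KC1, 6.81, 6.33 and 6.65 for KC2, 7.69, 7.80 and 7.91 for KC3, and 8.15, 8.17 and 8.31 for KC4. The 3 KC2 arrays lay below the other 9. KC2 minus KC4 was -1.61 (SE 0.135, adjusted p = 1.6e-05) and KC2 minus KC3 was -1.20 (adjusted p = 8.76e-05). On the second probe set the same differences were -2.28 (adjusted p = 0.00227) and -1.19 (adjusted p = 0.0524), and on the third, near the floor, 0.05 and 0.28. With the mean of all 3 sets KC2 minus KC3 was -0.71 and was not called. The class difference of -0.99 (SE 0.111, adjusted p = 0.000123) fell short of the minimum, and it passed without KC1 (-1.01) or without KC3 (-1.28).

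Tln1, the main talin, had 10.83 ± 0.04 for KC1, 10.86 ± 0.01 for KC2, 10.09 ± 0.14 for KC3 and 10.98 ± 0.02 for KC4. KC3 minus KC4 was -0.89 (SE 0.062, adjusted p = 6.26e-06). Its second probe set gave the opposite sign, at 1.13 (adjusted p = 0.00458), so the sets disagreed in KC3 as well. In KC2 minus KC3 the third set was called, at 1.19 (adjusted p = 0.00397), against 0.77 on the used set and -0.77 on the second. Zyx, zyxin, which gathers at strained actin fibres, had 11.18 for KC1, 10.47 for KC2, 11.13 for KC3 and 10.70 for KC4. Its largest pair difference, KC1 minus KC2, was 0.71 (adjusted p = 0.000591), under the minimum.

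**Figure D4:**
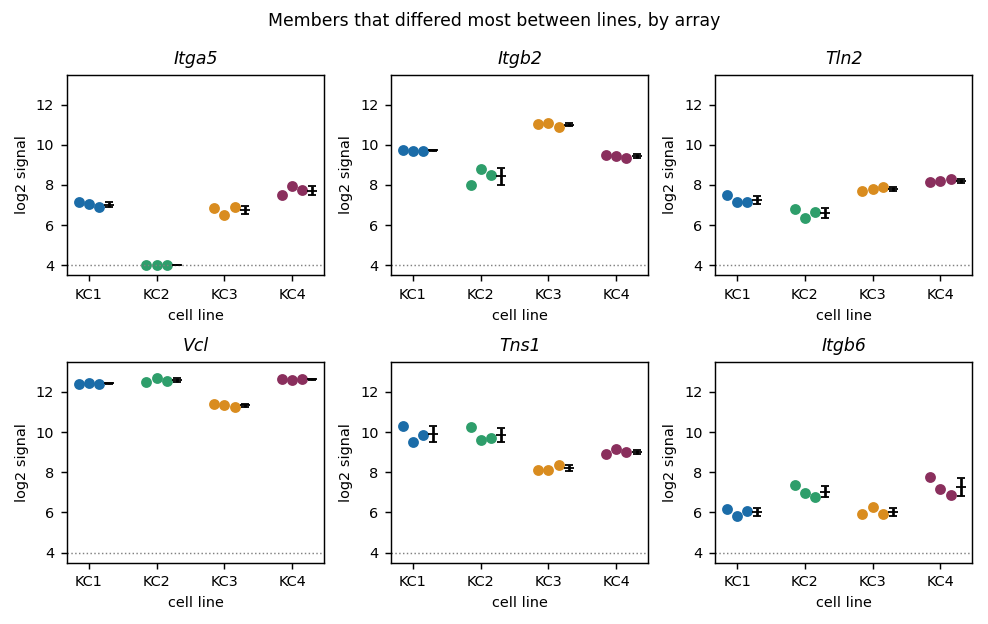
Log2 signal on each array (points) with the mean and SD of the 3 arrays of a line (bars to their right) for 6 genes in KC1, KC2, KC3 and KC4; the dotted line is the floor at 4.00. KC2 is lowest for Itga5, Itgb2 and Tln2, KC3 is lowest for Vcl and Tns1, and KC1 and KC3 are low for Itgb6.

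The kindlin and Ilk complex held 6 of the genes, and limma called 0 of them in any pair, beside 20.4% of all genes called in at least 1 pair, although 4 had an unadjusted and an adjusted p under 0.05 in at least 1 pair. Ilk, the pseudokinase at its centre, had 11.39, 11.31, 11.49 and 11.48 in KC1, KC2, KC3 and KC4, with a class difference of -0.08 and a 95% interval of -0.23 to 0.07. Fermt2, a kindlin, had 9.80, 9.93, 9.44 and 9.72. Lims1, a Pinch protein that binds Ilk, had 11.01, 11.22, 10.62 and 11.21. Its relative Lims2 lay at the floor on 8 arrays. The parvins, which join Ilk to actin, differed more. Parva had 10.25, 10.87 and 9.99 in KC1, KC2 and KC3, against 10.19 in KC4, and was higher in KC2 than in KC3 by 0.87 (adjusted p = 1.21e-05), while its other probe set gave 0.26 (adjusted p = 0.147). Parvb had 10.93, 11.37 and 10.66, against 11.47 in KC4, with KC3 minus KC4 at -0.81 (adjusted p = 5.84e-06). None of these differences reached the minimum of 1.

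Among the signalling adaptors, Pxn, the paxillin scaffold, was higher in each highly metastatic line than in KC4. It had 12.56 ± 0.03 for KC1, 12.78 ± 0.12 for KC2 and 12.58 ± 0.07 for KC3, against 11.98 ± 0.10 for KC4. The class difference was 0.66 (SE 0.059, adjusted p = 3.1e-05), a 1.58-fold difference under the minimum, and the other 2 probe sets gave 0.68 each. Src, the tyrosine kinase, had 10.34, 10.34 and 10.82 in KC1, KC2 and KC3, against 10.46 in KC4, with KC3 minus KC4 at 0.36 (adjusted p = 0.000318). Bcar1, a substrate of Src that docks further signalling proteins, had 11.45, 11.51 and 11.08, against 11.45 in KC4.

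Over the pairs of lines, the shares of called genes in the group rest on 1 to 6 genes, and 1 gene is 2.63% of the group. In KC2 and in KC3 against KC4, and in KC1 against KC3, the share lay within 1 gene of that of all genes. It lay below that of all genes in KC1 against KC4, and above it in KC1 against KC2 and in KC2 against KC3. KC1 against KC4 gave 1 gene, lower in KC1, or 2.63%, beside 5.54% of all genes (3.49% higher, 2.05% lower). KC2 against KC4 gave 4 genes, all lower in KC2, or 10.5%, beside 9.48% of all genes (5.02% higher, 4.46% lower). KC3 against KC4 gave 1 higher and 2 lower genes, or 7.89%, beside 8.22% of all genes (3.52% higher, 4.7% lower). Among the highly metastatic lines, KC1 against KC2 gave 2 higher and 2 lower genes, or 10.5%, beside 5.01% of all genes (3.09% higher, 1.91% lower). KC1 against KC3 gave 3 higher and 1 lower, also 10.5%, beside 8.21% (5.33% higher, 2.89% lower). KC2 against KC3 gave 3 in each direction, or 15.8%, beside 10.8% (5.9% higher, 4.94% lower). Of the 2 lower genes in KC1 against KC2, Itgb3 and Itgb6, neither was called with quantile normalization or median centring. At least 1 pair was called for 9 of the 38 genes, or 23.7%, against 20.4% of all genes. The comparisons share lines and are not independent.

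Where the adjusted p alone is read, KC3 against KC4 gave the most, with 20 of 38 genes, or 52.6%, against 33.8% of all genes. The lower genes there were 34.2% of the group, against 16% of all genes, and the higher genes 18.4%, against 17.8%. KC2 against KC3 gave 18 (47.4%, against 37.9%), KC1 against KC3 14 (36.8%, against 33.3%) and KC1 against KC2 13 (34.2%, against 26.4%). KC1 against KC4 gave 12 (31.6%, against 25.7%) and KC2 against KC4 10 (26.3%, against 35.6%). Brighter genes pass more readily. Of the genes with a mean of at least 10, 13 of the 15 in the group passed in KC3 against KC4, or 86.7%, against 59.5% of all such genes. In KC2 against KC4 the shares were 33.3% and 63.2%. After median centring 16 of the 38 passed in KC3 against KC4, or 42.1%, against 29.4% of all genes, and 19 passed in KC2 against KC3. With quantile normalization both pairs gave 20. Median centring also changed the split of all called genes, giving 989 higher and 657 lower in KC3 minus KC4 in place of 641 and 855. It gave 724 and 939 in KC1 minus KC3 in place of 969 and 525, and 744 and 1515 in KC2 minus KC3 in place of 1073 and 899.

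A line was counted as standing outside the others when a gene was called against the mean of the other lines and all 3 arrays lay above, or all below, the other 9. For KC1 this held for 0 of the 38 genes, beside 1.94% of all genes (1.6% higher, 0.341% lower), although limma gave 10 an adjusted p, and 14 an unadjusted p, under 0.05 against the mean of the others. For KC2 it held for Itga5, Itgb2 and Tln2, all lower, or 7.89%, beside 4.49% of all genes (2.41% higher, 2.08% lower). For KC3 it held for Itgb2, higher, and for Vcl and Tns1, lower, or 7.89%, beside 4.99% (2.23% higher, 2.76% lower). For KC4 it held for Itga5, higher, or 2.63%, beside 3.64% (1.82% in each direction).

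Genes around the integrins were read from 4 lists. Of 43 measured integrin ligands, the class contrast called 2 higher and 6 lower, or 18.6%, beside 5.45% of all genes (2.87% higher, 2.57% lower), with a median difference of -0.0203, against -9e-04 over all genes. With the line as a random block 3 of them were called. Nid1, a basement membrane linker, had 8.94 for KC1, 10.75 for KC2 and 4.43 for KC3, against 4.11 for KC4, and its class difference was 3.93 (adjusted p = 2.87e-06). On 2 KC4 arrays and 1 KC3 array it lay at the floor, so this difference was measured in part against the floor. Col6a1, a collagen chain, had 4.19, 4.54 and 4.43 in KC1, KC2 and KC3, against 7.77 in KC4. It lay at the floor on 1 KC1 and 1 KC3 array, so its difference of -3.38 (adjusted p = 1.98e-05) is a bound in size. Vcam1, a ligand of the Itga4 and Itga9 receptors, had 10.14 in KC1 and 10.62 in KC2, with 8.01 in KC3 and 8.13 in KC4. Tgfb3, whose latent form binds Itgav receptors, had 6.36, 7.74 and 4.52 in KC1, KC2 and KC3, against 8.69 in KC4. On 2 KC3 arrays it lay at the floor, so its differences with KC3 were measured in part against the floor. Jam2, a junctional adhesion molecule, was lowest in KC3 (5.71), and Ccn1, a matricellular ligand, was lowest in KC2 (9.76). These 2 had 8.89 and 12.29 in KC4.

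Of 41 further adhesome components, 1 was called higher and 2 lower in the class contrast, or 7.32%, beside 5.45% of all genes, and 1 was called with the line as a random block. Dab2, an endocytic adaptor that binds beta tails, had 6.81, 7.42 and 5.53 in KC1, KC2 and KC3, against 9.67 in KC4 (-3.09, adjusted p = 6.37e-05). Tns4, a tensin without an actin-binding region, had 11.31, 10.90 and 10.50, against 12.19 in KC4 (-1.29). Evl, an actin polymerisation factor, had 8.54, 9.14 and 9.66, against 8.10 in KC4 (1.01). In this list 6 genes were higher and 1 lower both in KC1 and in KC2 against KC3, or 17.1% each, beside 8.21% and 10.8% of all genes. KC2 against KC4 gave 4 higher and 4 lower (19.5%, beside 9.48%), and KC3 against KC4 gave 1 higher and 6 lower (17.1%, beside 8.22%). KC1 against KC4 gave 1 higher and 2 lower (7.32%, beside 5.54%), and KC1 against KC2 gave 1 higher (2.44%, beside 5.01%). The counts of the lists in pairs were not recomputed with other normalizations. The widest pair differences were those of Tns2, another tensin, with 7.49 for KC1, 8.37 for KC2, 5.24 for KC3 and 6.38 for KC4, and Fblim1, a partner of filamin and kindlin, with 9.79, 10.45, 7.52 and 8.97.

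Of 40 genes of integrin activation and signalling, 3 were called higher and 0 lower in the class contrast, or 7.5%, beside 5.45% of all genes. Vav3 had 6.51, 7.58 and 8.24 in KC1, KC2 and KC3, while its KC4 arrays were all at the floor, so its difference was at least 3.44. Mylk, myosin light chain kinase, had 9.51, 9.53 and 8.69, against 7.59 in KC4 (1.65, adjusted p = 1.19e-05). Dock1, which acts with Bcar1 and Crk to activate Rac, had 10.16, 10.00 and 9.12, against 8.45 in KC4 (1.31, adjusted p = 4.47e-06). Fyn, a kinase related to Src, was lower in KC2 (7.43) than in KC3 (9.77), and Rhoc was higher in KC2 (11.29) than in KC3 (9.79).

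Of 19 membrane partners and hemidesmosome anchors, 1 was called in the class contrast, or 5.26%, beside 5.45% of all genes. This was Tm4sf1, a tetraspanin-like protein found with integrins, with 8.23, 11.48 and 8.23 in KC1, KC2 and KC3, and the floor on all 3 KC4 arrays, a difference of at least 5.31. Slc3a2, which binds beta tails and carries amino acid transporters, was lower in KC2 (11.29) than in KC3 (13.21). Cd82, a tetraspanin, was also lower in KC2 (10.05) than in KC3 (11.20).

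**Figure D5:**
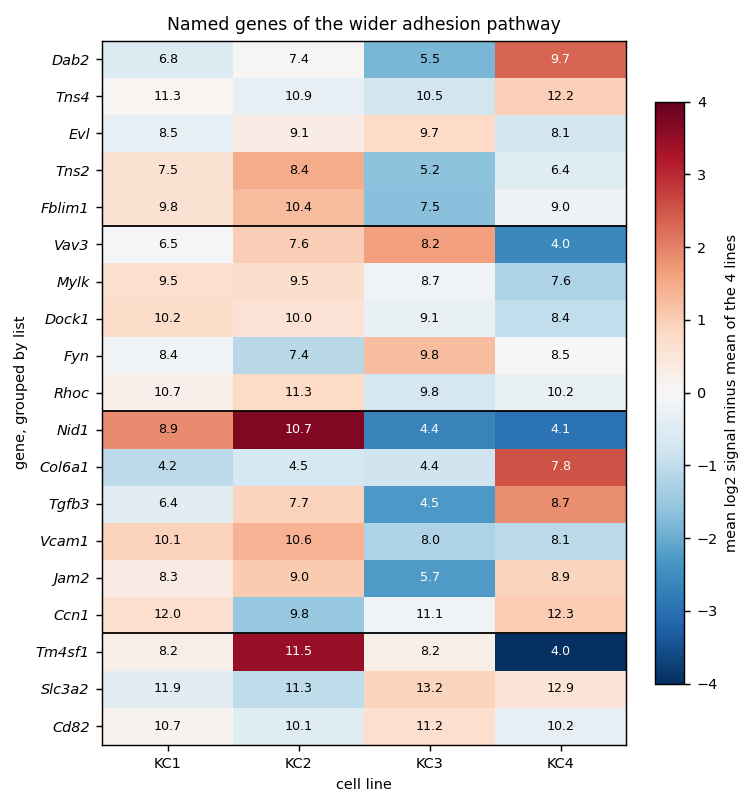
Mean log2 signal (numbers, n = 3 arrays) of the named genes of the 4 lists in KC1, KC2, KC3 and KC4, coloured by the difference from the mean of the 4 lines. Vav3 and Tm4sf1 sit at 4.0 in KC4, and Tns2, Fblim1, Jam2 and Tgfb3 are lowest in KC3.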

How the data were processed

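RNA of 4 mouse cell lines was measured on 12 arrays, 3 per line. The authors deposited linear intensity values of 45101 probe sets for each array, and which software made them is not stated in the labels. Per the labels, biotin labelling of total RNA followed the Affymetrix protocol. From the values, the mean after trimming 2% at each end was 500.002 to 500.003 on every array, so total messenger RNA per cell cannot be read, and the background correction is unknown.

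From the deposited intensity values, signals under 16 were set to 16 and log2 was taken. After 64 control probe sets were left out, 34945 had 1 symbol in the platform annotation, 932 several and 9160 were not listed; 34741 matched RefSeq (GRCm38.p6), which changed 0 symbols. The brightest probe set of each of 18193 genes was used; the 38 genes of the group have 88 probe sets, and 8 are read through sets ending in s_at or x_at, which can pick up related transcripts. limma 3.58.1 in R 4.3.3 (lmFit, eBayes, 1 coefficient per line, all 12 arrays, prior degrees of freedom 0.811) gave p-values, adjusted by the Benjamini-Hochberg method over all genes. The class contrast alone was checked on simulated data, with independent noise and shifts in genes of middle brightness. Shifts in dim genes, pairs of lines and variation between lines were not covered.

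The gene group and the lists were chosen with earlier results of these data known. Named genes are all 38 members. Values per array are given for those called in the class contrast, standing outside the other lines, or differing by at least 2 in a called pair. From each list, up to 4 genes with the largest called class difference and up to 2 with the largest called difference in a pair are named. Same-numbered replicates did not deviate together (18 pairs, r from -0.125 to 0.104, median 0.006), so no block was used. Promoters are the 250 bases before the RefSeq start, listed for 27 of the 38 genes. Alternatives covered the replicate block, leaving out arrays or lines, probe sets, dim genes, normalization, the prior, the floor, the minimum difference and the line as a random block. Figures were drawn with matplotlib 3.10.9.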

Additional observations from a re-analysis of the deposited data

Results flagged for a closer look

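Every group held 3 arrays, too few for a check of single outlying arrays. The values below come from probe sets of the group's genes that no comparison used, each past an adjusted p under 0.05 (limma, over all probe sets with 1 symbol) and a log2 difference of at least 1, where the used set of that gene was not called. For each set the value is that of its largest such difference from KC4, over the 3 single lines and their mean. Why sets of a gene differ was not tested.

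For Itgb5, 3 unused sets were low where the used set was not called. KC2 minus KC4 was -1.90 (SE 0.102, adjusted p = 1.36e-06) on the first and -2.63 (SE 0.174, adjusted p = 5.13e-06) on the last, against -0.17 on the used set. KC1 minus KC4 was -2.98 (SE 0.455, adjusted p = 0.00148) on the remaining set, against -0.24.

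For Itgb1, 4 unused sets gave larger differences in the direction of the used set. The highly metastatic lines minus KC4 gave -1.01 (SE 0.0704, adjusted p = 9.25e-06) against -0.78 on the used set. KC3 minus KC4 gave -1.26 (adjusted p = 0.0229), -1.89 (adjusted p = 0.00309) and -2.40 (adjusted p = 0.00192) on the others, against -0.53.

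For Tln1, KC3 minus KC4 was 1.13 (SE 0.224, adjusted p = 0.00458) on an unused set, the opposite sign to the used set's -0.89. For Tln2, the highly metastatic lines minus KC4 gave -1.62 (SE 0.334, adjusted p = 0.00584) against -0.99. For Tns1, KC3 minus KC4 was -1.20 (SE 0.128, adjusted p = 0.00012) against -0.82. For Itgal, KC2 minus KC4 was 1.78 (SE 0.566, adjusted p = 0.0416) on a set near the floor in KC4, against 0.32 on the used set.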

How the results depend on the processing

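For 33 named differences of the group's genes, 756 recomputations were made, and 0 of them reversed a called difference. A change of sign was recorded only for differences that were called. It was not recorded for the class differences under the minimum, such as those of Tln1 and Parva. Many of the recomputations could not reverse a sign. The minimum difference, the prior, the blocks and the choice of genes tested leave the difference itself unchanged, as does leaving out an array of a line outside the pair. Calls were lost in 19 recomputations with a minimum of 2, in 22 with 1 array left out and in 7 with the mean of all probe sets. A floor of 64 and median centring ended 4 calls each, quantile normalization 3 and log2(signal + 16) 2. The replicate block, testing every probe set, the line as a random block and leaving out KC2 ended 1 each. Of 170 counts recomputed with single arrays kept, 130 stayed within 1.5 times. The others are as follows, for the highly metastatic lines against KC4 first (1 gene called). The mean of all probe sets gave 3 (Itga5, Itgb1, Itgb5), quantile normalization 2 (Itga5, Tln2), and leaving out KC1 or KC3 2 each. The brighter 50% of genes, which holds 20 of the 38, gave 0, as did a minimum difference of 2 and the line as a random block (correlation 0.559, adjusted p of Itga5 = 0.451). KC1 against KC4 gave 2 with the mean of probe sets or quantile normalization and 0 with bright genes or a minimum of 2. KC2 against KC4 gave 2 with bright genes and 1 with a minimum of 2, and KC3 against KC4 gave 0 with a minimum of 2. KC1 against KC2 gave 2 with the mean of probe sets, quantile normalization, median centring or a floor of 64, and 1 with bright genes or a minimum of 2. KC1 against KC3 gave 2 with centring and 0 with a minimum of 2. KC2 against KC3 gave 3 with bright genes and 2 with a minimum of 2. Genes outside the other lines numbered 1 in KC2 with bright genes or a minimum of 2, and 0 in KC3 with a minimum of 2. In KC4 they numbered 2 with the mean of probe sets or quantile normalization and 0 with bright genes or a minimum of 2. The ligand list gave 5 with bright genes and 3 with a minimum of 2 or the random block. The adhesome list gave 1 with a minimum of 2 or the random block, the signalling list 1 with the mean of probe sets or a minimum of 2, and the membrane partners 2 with the mean of probe sets or without KC3. The causes were not tested, beyond fewer genes tested with bright genes.

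Leaving out 1 array gave 1 to 2 genes for the highly metastatic lines against KC4, 1 to 3 for KC1, 3 to 5 for KC2 and 3 to 5 for KC3 against KC4, 2 to 4 for KC1 against KC2, 3 to 4 for KC1 against KC3 and 5 to 7 for KC2 against KC3. Outside the other lines stood 0 to 1 in KC1, 3 to 4 in KC2, 3 to 4 in KC3 and 1 to 2 in KC4. The lists gave 8 to 8, 2 to 4, 3 to 3 and 1 to 1. With the replicate number as a block, KC1 against KC2 gave 3 genes in place of 4, since Itgb3 had an adjusted p of 0.0724 there; no other call of a named gene changed with the block.

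Counts over all genes moved by over 1.5 times with the brighter 50% of genes (518, 500, 1050, 887, 420, 856 and 1257 in the order of the comparisons above), with a minimum of 2 (249, 311, 486, 358, 252, 375 and 478) and with the random block (249), from 991, 1008, 1725, 1496, 911, 1494 and 1972. Dim signals limit Itga1, Itga7, Itgam, Itgb3, Itgb8 and Lims2, which lie near the floor. With a floor of 64, Itga5 in KC2 minus KC3 was -0.76 and not called.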
